A study of Homo sapiens with 54 samples.

Results

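The 10 genes described here serve the lysosome and autophagy: TFEB, LAMP1, LAMP2, CTSB, CTSD, SQSTM1, MAP1LC3B, ULK1, GABARAPL1 and WIPI1. They were taken as a set by function and not by their accessibility. They are 10 of 19974 protein-coding genes of chromosomes 1 to 22 and X. Open chromatin was measured by ATAC-seq, in which a transposase cuts and tags accessible DNA, in 2 established lines, PC3 from prostate cancer and MDA-MB-231 from triple-negative breast cancer. Cisplatin, which crosslinks DNA through platinum, was given and then removed, and surviving cells of each line were collected 1 day later or 10 days later. Untreated cells of the same line were the control. There were 6 groups of 3 peak lists (18 lists), with 1 list from each biological replicate. Survivors were analysed as bulk populations, so a change in every cell and a change in the mixture of cells cannot be told apart.

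Lysosomes digest material delivered by endocytosis and by autophagy, in which a double membrane closes around cytoplasm and fuses with the lysosome. TFEB is a transcription factor that mTORC1 holds in the cytoplasm when nutrients are plentiful. In the nucleus it binds E-box sequences known as CLEAR elements near lysosomal and autophagy genes. ULK1 is the kinase that starts autophagosome formation, and WIPI1 binds the lipid PI3P on the forming membrane. MAP1LC3B and GABARAPL1 encode ubiquitin-like proteins that are attached to that membrane, and SQSTM1 encodes p62, the receptor that tethers ubiquitylated cargo to them. LAMP1 and LAMP2 are the abundant glycoproteins of the lysosomal membrane, and CTSB and CTSD are proteases of its lumen.

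The 250 bases before the annotated start were searched on both strands for the E-box core CACGTG in RefSeq promoters of GRCh38.p14, which were found for 8 of the 10 genes (every annotated start of TFEB and SQSTM1 included). LAMP1 and CTSD are shown because they were the members whose sequence held the core. A peak lay over the LAMP1 start in all 18 lists and over the CTSD start in 17, the exception being replicate 3 of PC3 day 10. The sequences run 5′ to 3′ towards the start, on the + strand of chr13:113296989-113297238 for LAMP1 and the - strand of chr11:1763928-1764177 for CTSD. Capitals mark the core.
LAMP1: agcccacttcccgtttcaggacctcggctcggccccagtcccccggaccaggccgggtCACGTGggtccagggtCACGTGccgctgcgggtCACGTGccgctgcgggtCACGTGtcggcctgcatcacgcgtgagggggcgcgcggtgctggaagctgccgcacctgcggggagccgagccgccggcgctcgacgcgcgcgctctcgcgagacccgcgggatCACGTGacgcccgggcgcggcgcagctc
CTSD: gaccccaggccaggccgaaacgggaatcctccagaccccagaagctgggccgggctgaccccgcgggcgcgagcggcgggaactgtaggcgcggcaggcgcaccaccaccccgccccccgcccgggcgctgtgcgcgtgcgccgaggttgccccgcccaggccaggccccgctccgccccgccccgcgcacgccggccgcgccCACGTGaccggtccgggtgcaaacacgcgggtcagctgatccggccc

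With the start at position 0 and bases before it negative, LAMP1 held 5 cores, beginning at -192, -176, -159, -142 and -28, and CTSD held 1, beginning at -47. Of 22156 promoters of protein-coding genes, 7.37% held at least 1 core and 1, that of LAMP1, held 5. The longer palindrome TCACGTGA, which contains the core, occurred once in the LAMP1 sequence and in 1.13% of those promoters. The TFEB, SQSTM1, ULK1, MAP1LC3B, GABARAPL1 and WIPI1 sequences held no CACGTG, and no sequence was used for LAMP2 or CTSB. A further match of TGACGTCA, the cAMP response element, began at -30 in GABARAPL1 and is present in 2.01% of promoters. The antioxidant response element TGACNNNGC matched once each in LAMP1 (at -199, overlapping a CACGTG), CTSD (at -195) and MAP1LC3B (at -46), and in 11.2% of promoters. No member sequence held TGANTCA, the AP-1 motif, or GTAAACA, a FOXO motif, which are in 5.36% and 2.46% of promoters. These matches are letters only.

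Accessibility of a gene is given as covered length, the number of bases under peaks from 10 kb before the gene body to 10 kb after it. It was scaled so that every list had the same total covered length. The 18 lists held from 82392 to 165535 peaks and covered from 54.4 to 82.3 Mb. Read counts are not part of them, so sequencing depth is unknown. The p-values measure the spread between lists, which may be partly technical. Median peak width was lowest in replicate 1 of every MDA-MB-231 group and of both PC3 survivor groups. A peak at the CDH1 start, an epithelial marker, was in all 9 PC3 lists. In MDA-MB-231 it was in 1 of 3 untreated, 2 of 3 day 1 and 1 of 3 day 10 lists. The other epithelial markers, EPCAM, KRT8, KRT18 and ESRP1, had a peak at their start in every list of both lines. So did the mesenchymal markers VIM, ZEB1, AXL and CAV1. The haematopoietic marker PTPRC and the endothelial marker PECAM1 had a peak at their start in no list.

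CTSB had no peak in any of the 18 lists used here. Its body, chr8:11842524-11868087, lay in a stretch of 424.6 kb without a peak in any list that held 9 protein-coding genes. SQSTM1, chr5:179806393-179838078, had 1 peak of 166 bp, in replicate 1 of untreated MDA-MB-231, within a stretch of 249.6 kb with 7 protein-coding genes and 2 peaks over all lists. No list had a peak within 10 kb of 2168 (10.9%) of the protein-coding genes. Peaks on alternate or patch sequences, of which the lists held from 5 to 29 for all of chromosome 8 and from 2 to 11 for all of chromosome 5, were not used, and whether reads of these genes were placed there was not tested. The absence of a peak is therefore not given as closed chromatin. Both genes fell under the minimum of 500 bp in at least 3 lists and were not analysed further. The other 8 members passed it and were tested with limma among 16816 genes, and a gene is called where its Benjamini-Hochberg adjusted p was under 0.05.

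Calls of the 8 members tested are set beside the shares of all genes in each comparison. The share of all genes called in at least 1 comparison of survivors with control was not worked out. In those comparisons TFEB and LAMP1 were the members called higher, and LAMP2, CTSD, MAP1LC3B and ULK1 those called lower. At day 1 in PC3 none rose and 1 fell (MAP1LC3B), against 6.02% of all genes higher and 7.24% lower. By day 10 in PC3, TFEB rose and LAMP2, MAP1LC3B and ULK1 fell, against 11.8% of all genes higher and 33.1% lower. Among MDA-MB-231 survivors at day 1, LAMP1 rose and CTSD and MAP1LC3B fell, against 10.9% higher and 15.5% lower. Among those at day 10, LAMP1 rose and ULK1 fell, against 11.0% higher and 16.7% lower. Between the survivors, PC3 at day 10 against day 1 had no call (2.19% of all genes higher, 5.5% lower). MDA-MB-231 at day 10 against day 1 had 1, LAMP1, which was lower (2.13% higher, 3.24% lower). GABARAPL1 and WIPI1 were called in none of these 6 comparisons.

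The scaling bears on these calls. The median log2 change of all genes was -0.16 in PC3 at day 10, -0.07 in PC3 at day 1, -0.09 in MDA-MB-231 at day 1 and -0.11 in MDA-MB-231 at day 10. With median-of-ratios scaling it was 0.00, 0.00, 0.01 and 0.00, and without scaling 0.05, 0.16, 0.04 and -0.11. Of all genes, 1981 were higher and 5566 lower in PC3 at day 10. The counts were 3423 and 2516 when scaled by the median of ratios, and 2819 and 1188 without scaling. In PC3 at day 1 they were 1013 and 1218, then 1473 and 404, then 2436 and 32. In MDA-MB-231 they were 1825 and 2609, then 2228 and 955, then 1897 and 318 at day 1, and 1849 and 2814, then 2172 and 963, then 1458 and 1193 at day 10. The rises of LAMP1 in MDA-MB-231 against control and of TFEB in PC3 held under both other scalings. Each fall of LAMP2, CTSD, MAP1LC3B and ULK1 kept its direction under both and passed the test under neither. Changes below are therefore also given relative to the median of all genes.

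**Figure D1:**
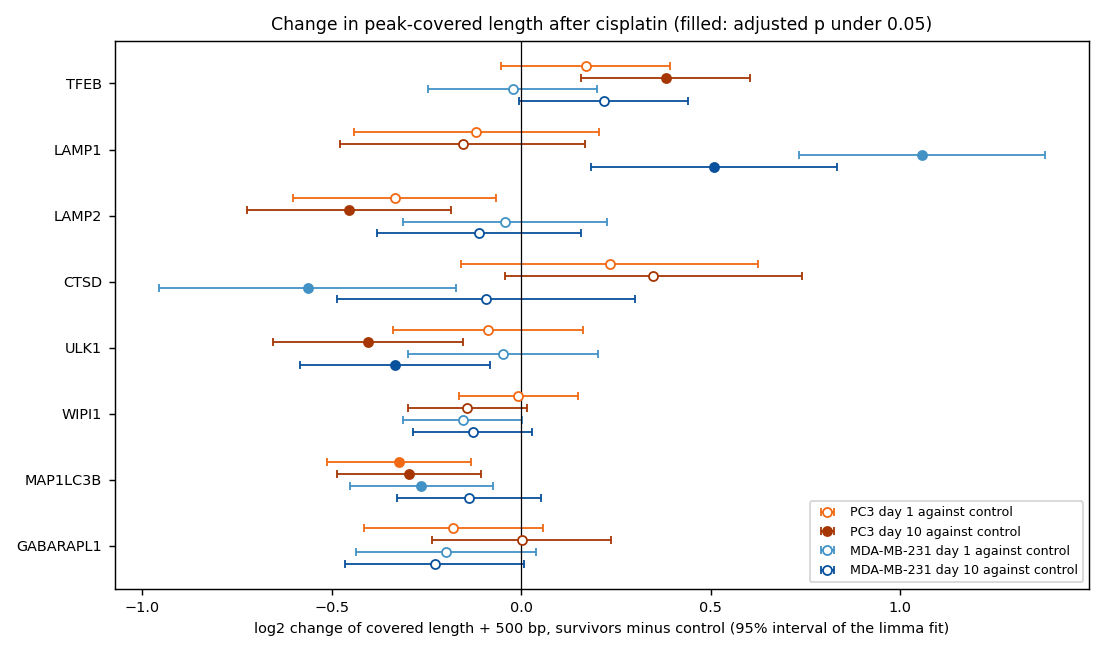
Change in scaled covered length on the log2(length + 500 bp) scale (horizontal axis), survivors minus control of the same line, for the 8 members tested, with 95% intervals from the limma fit on 3 lists per group. Filled points passed an adjusted p of 0.05: LAMP1 in MDA-MB-231 at day 1 lies farthest from 0 at 1.06, and TFEB in PC3 at day 10 lies at 0.38.

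TFEB, the transcription factor of the set, gained covered length in PC3 by day 10. Its body is chr6:41683978-41736223 on the - strand. In PC3 it had 8.24, 9.06 and 7.50 kb in the untreated lists, 9.33, 8.78 and 9.94 kb at day 1 and 10.7, 9.81 and 12.4 kb at day 10. All 3 day 10 lists lay above all untreated lists, and day 1 overlapped both. The change at day 10 was 0.38 log2 (SE 0.106, limma adjusted p = 0.00802), or 0.54 relative to the median of all genes. It stayed called when any 1 list was left out and with only the peaks above the median area of each list (0.27, adjusted p = 0.0336). At day 1 it was 0.17 (95% interval -0.05 to 0.39, adjusted p = 0.275).

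Several regions away from the TFEB start were added. Regions are peaks merged over the 18 lists, their lengths are given unscaled, and the TFEB window held 21 of them. In the gene body, 3 regions had a peak in all 3 PC3 day 10 lists and no untreated PC3 list: chr6:41694173-41695473, chr6:41706826-41707721 and chr6:41730343-41731172. The first of these was also in all 3 PC3 day 1 lists, the second in 2 of 3 and the third in none. A region upstream, chr6:41741671-41745207, which overlaps the neighbouring gene PGC (pepsinogen C), was in all 18 lists and averaged 2067 bp at day 10, against 912 bp in untreated PC3. Within 1 kb of its annotated starts, scaled, TFEB was lower at day 10 in PC3 (-0.28, adjusted p = 0.0141), with 2177, 1918 and 2156 bp, against 2469, 2953 and 2520 bp in untreated cells. The median change of all genes there was -0.30, and 72.6% of genes were lower. Unscaled, the region at the start, chr6:41732502-41736395, averaged 3053 bp at day 10 and 2599 bp in untreated PC3.

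In MDA-MB-231 the TFEB window had 15.1, 14.5 and 15.7 kb in untreated lists, 14.9, 14.7 and 14.9 kb at day 1 and 21.0, 17.7 and 14.8 kb at day 10. The 3 lists of day 10 spread over more than the difference from control. The change was -0.02 log2 at day 1 (95% interval -0.25 to 0.20) and 0.22 at day 10 (-0.0056 to 0.44, adjusted p = 0.134). With median-of-ratios scaling the day 10 change passed (0.34, adjusted p = 0.0407). With only the peaks above the median area of each list, TFEB was called higher at day 1 (0.43, adjusted p = 0.0074) and at day 10 (0.59, adjusted p = 0.000536). A region of the body, chr6:41688343-41688989, had a peak in all 6 survivor lists of MDA-MB-231 and in no untreated list. A second one, chr6:41698017-41698358, was in all 3 day 1 lists and in no other list of either line. A region past the end of the gene, chr6:41676456-41677541, was in none of the 6 survivor lists of MDA-MB-231 and in all 3 untreated lists.

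LAMP1, a glycoprotein of the lysosomal membrane, had the largest change of any member in a comparison of survivors with control. Its body is chr13:113297239-113323672 on the + strand. In MDA-MB-231 its window had 2.94, 1.50 and 1.86 kb in untreated lists, 4.68, 4.33 and 5.35 kb at day 1 and 3.35, 2.76 and 3.22 kb at day 10. Day 1 lay above every untreated and every day 10 list, and day 10 overlapped the untreated lists at 1 list of each. At day 1 the change was 1.06 log2 (SE 0.154, limma adjusted p = 0.000128), or 1.14 relative to the median of all genes. It stayed called when any 1 list was left out. It did not pass with only the peaks above the median area of each list (0.56, adjusted p = 0.135), with only the 50000 peaks of largest area in each list (0.66, adjusted p = 0.143), nor in the gene body without its 10 kb flanks (0.50, adjusted p = 0.105).

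At day 10 LAMP1 was still higher than in untreated MDA-MB-231 cells, by 0.51 log2 (SE 0.154, adjusted p = 0.0208), and lower than at day 1 (-0.55, adjusted p = 0.0458). The first call was lost without untreated replicate 2 (0.34, adjusted p = 0.122) or 3 (0.46, adjusted p = 0.0769), or day 10 replicate 1 (0.46, adjusted p = 0.0703) or 3 (0.49, adjusted p = 0.0633). It also did not pass with the peaks above the median area (0.18, adjusted p = 0.718), with the 50000 peaks (0.32, adjusted p = 0.586), in the gene body (0.34, adjusted p = 0.29) or in a fit of only the groups compared (adjusted p = 0.123). The second was lost without any 1 of the 6 lists of these groups, with values from -0.61 to -0.47, and when scaled by the median of ratios (-0.54, adjusted p = 0.0549). With an offset of 100 bp, the peaks above the median area, the 50000 peaks, the gene body or values relative to the genes within 5 Mb it also did not pass, with adjusted p from 0.07 to 0.751.

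In PC3 the LAMP1 window had 2.75, 2.88 and 2.53 kb in untreated lists, 2.21, 2.42 and 2.79 kb at day 1 and 2.42, 2.74 and 2.05 kb at day 10. The 3 groups overlapped, with changes of -0.12 (95% interval -0.44 to 0.21) and -0.15 (-0.48 to 0.17). The lines differed in the change: PC3 minus MDA-MB-231 was -1.18 at day 1 (adjusted p = 0.00424), where 5.3% of all genes differed between the lines in either direction. The day 1 difference did not pass in the gene body (-0.50, adjusted p = 0.411), with the peaks above the median area (-0.39, adjusted p = 0.647), with the 50000 peaks (-0.45, adjusted p = 0.648) or within 1 kb of the start (-0.04, adjusted p = 0.986). At day 10 it was -0.66 (adjusted p = 0.0463), where 16.4% of all genes differed. The day 10 difference passed under neither other scaling (-0.59 with median-of-ratios scaling, adjusted p = 0.0771; -0.44 without scaling, adjusted p = 0.202), nor in the gene body (-0.29, adjusted p = 0.551) or with the peaks above the median area (-0.16, adjusted p = 0.798), and was lost without 9 of the 12 lists in turn (values from -0.71 to -0.49). No other member was called for a difference between the lines at either time.

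The regions added at LAMP1 lay outside its start. At day 1, 3 regions had a peak in all 3 MDA-MB-231 survivor lists and no untreated list. They are chr13:113291924-113292809 upstream, with its midpoint at -4872 bp, chr13:113314077-113314479 in the body and chr13:113326611-113327092 downstream, which overlaps the neighbouring gene GRTP1. Their mean covered lengths over the 3 day 1 lists were 458, 369 and 378 bp. The upstream region was also in all 9 PC3 lists, and none of the 3 was in all day 10 lists of MDA-MB-231. The region chr13:113331301-113332184, also in GRTP1, was in all 3 day 1 lists (mean 701 bp) and all 3 day 10 lists (502 bp) of MDA-MB-231, against 1 untreated list (98 bp). Also in GRTP1, chr13:113325176-113325621 was in 2 MDA-MB-231 day 1 lists (mean 269 bp) and in no other list. There too, chr13:113327649-113328527 was in 1 MDA-MB-231 day 1 list (mean 293 bp) and in no other. Part of the day 1 gain of the LAMP1 window thus lay in GRTP1. A region in the body 8144 bp from the start, chr13:113305142-113305623, was in all 3 PC3 day 10 lists and in no untreated PC3 list.

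The LAMP1 start, whose sequence is printed above, lay in chr13:113296599-113298015. Within 1 kb of the start, MDA-MB-231 had 1303, 1325 and 1246 bp at day 1, against 1609, 1499 and 1397 bp in untreated cells. That difference did not pass (-0.16, adjusted p = 0.35). In PC3 the start was lower at day 10 (-0.39, adjusted p = 0.0229), with 378, 628 and 417 bp, against 726, 765 and 823 bp in untreated cells. The median change of all genes at their starts was -0.30 there.

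**Figure D2:**
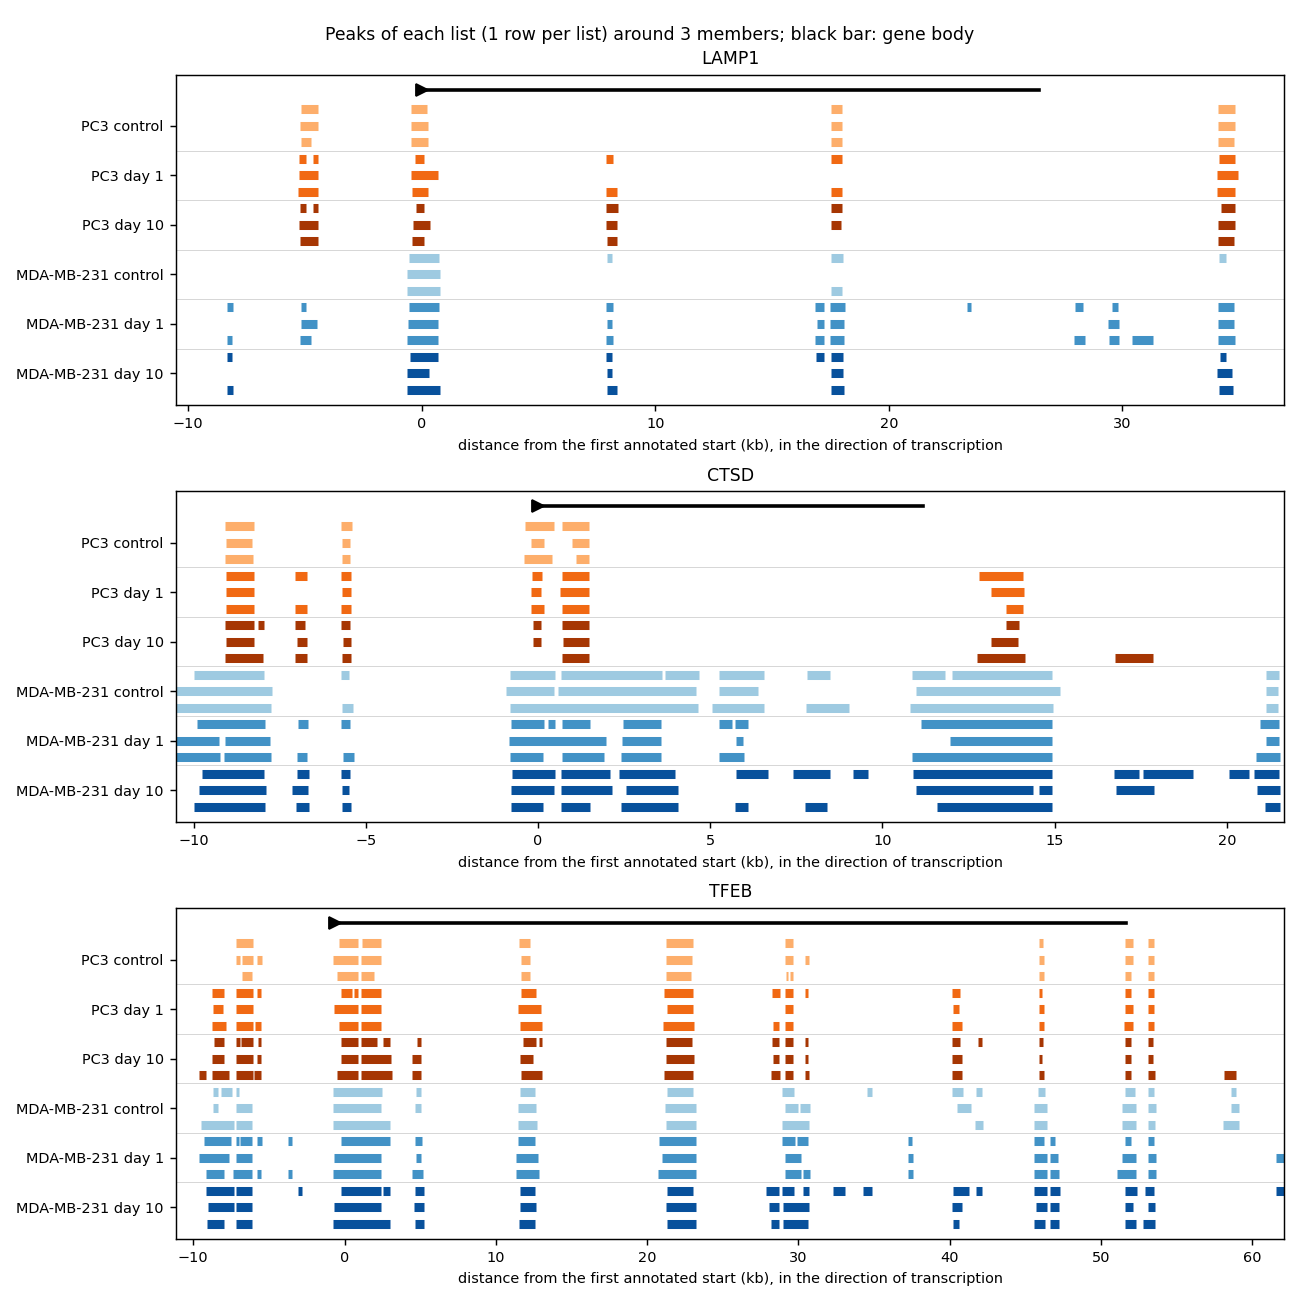
Peaks of the 18 lists (1 row per list, coloured by group) around LAMP1, CTSD and TFEB, by distance in kb from the first annotated start. LAMP1 has peaks away from the start in all 3 MDA-MB-231 day 1 lists, and CTSD has long peaks in MDA-MB-231 and short ones in PC3.

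LAMP2, the second membrane glycoprotein and in 1 of its isoforms the receptor of chaperone-mediated autophagy, fell in PC3. Its body is chrX:120426148-120469349. In PC3 it had 1.97, 1.73 and 2.06 kb in untreated lists, 1.71, 1.38 and 1.19 kb at day 1 and 1.03, 1.65 and 1.16 kb at day 10. Both survivor groups lay below every untreated list. The change at day 10 was -0.45 (SE 0.127, adjusted p = 0.00862), or -0.30 relative to the median of all genes, and it stayed called when any 1 list was left out. It did not pass with the peaks above the median area (-0.15, adjusted p = 0.302), with the 50000 peaks (-0.10, adjusted p = 0.621), relative to the genes within 5 Mb (-0.30, adjusted p = 0.0594) or in a fit of only the groups compared (adjusted p = 0.0631). At day 1 it was -0.33 (95% interval -0.60 to -0.07) and did not pass (adjusted p = 0.0868). The region chrX:120457002-120457271 was in no PC3 day 10 list and in all 3 untreated PC3 lists, and was in no MDA-MB-231 list.

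In MDA-MB-231, LAMP2 had from 1.68 to 1.98 kb in untreated lists, from 1.65 to 1.86 kb at day 1 and from 1.46 to 1.89 kb at day 10. These groups overlapped, with intervals of the change from -0.31 to 0.23 at day 1 and from -0.38 to 0.16 at day 10. The difference between the lines at day 10 was -0.34 and did not pass (adjusted p = 0.205).

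CTSD, the aspartic protease, separated the lines more than any other member. Its body is chr11:1752755-1763927 on the - strand. In PC3 its window had 2.91, 1.99 and 2.49 kb in untreated lists, 3.50, 2.75 and 2.67 kb at day 1 and 2.97, 2.69 and 4.23 kb at day 10. In MDA-MB-231 it had 17.2, 13.9 and 14.8 kb in untreated lists, 10.7, 9.31 and 10.4 kb at day 1 and 19.6, 14.1 and 10.4 kb at day 10. Every PC3 list lay below every MDA-MB-231 list. PC3 minus MDA-MB-231 was -2.42 log2 in untreated cells (SE 0.186, limma adjusted p = 5.47e-09), -1.62 at day 1 (adjusted p = 9.41e-07) and -1.98 at day 10 (adjusted p = 7.94e-08). These 3 calls held under every alternative run.

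Peaks covered 7.90 ± 1.48% of the CTSD window in untreated PC3 and 49.0 ± 5.53% in untreated MDA-MB-231 (SD, n = 3 each). The region at the start, chr11:1759267-1764843, averaged 1236 bp in untreated PC3 and 5353 bp in untreated MDA-MB-231. The region at the end of the gene, chr11:1748781-1753125, which also overlaps IFITM10, had no peak in untreated PC3 and averaged 4061 bp in untreated MDA-MB-231. It had a peak in all 6 PC3 survivor lists, with means of 907 bp at day 1 and 854 bp at day 10. The region chr11:1742373-1743140, in IFITM10, was in none of the 9 PC3 lists and in all 9 MDA-MB-231 lists.

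Within MDA-MB-231, CTSD fell at day 1, with a change of -0.56 log2 (SE 0.186, adjusted p = 0.0341), or -0.48 relative to the median of all genes. All 3 day 1 lists lay below all untreated lists. In the body without its flanks the change was -1.06 (adjusted p = 0.00106), and the start region averaged 3467 bp at day 1, against 5353 bp in untreated cells. The call in the whole window was lost without any 1 of the 6 lists, with values from -0.63 to -0.48, with the 50000 peaks (-0.36, adjusted p = 0.613) and with the peaks above the median area (-0.50, adjusted p = 0.207). At day 10 CTSD did not differ from control beyond the spread of the lists (-0.09, 95% interval -0.49 to 0.30). In PC3 the changes were 0.23 (-0.16 to 0.63) at day 1 and 0.35 (-0.04 to 0.74) at day 10. The day 10 change passed with median-of-ratios scaling (0.52, adjusted p = 0.0356) and without scaling (0.56, adjusted p = 0.0271). Within 1 kb of the start CTSD was lower (-0.53, adjusted p = 0.0188), where the median change of all genes was -0.30. The difference between the lines in the day 1 change was 0.80 (adjusted p = 0.0922), or adjusted p = 0.0442 with the replicate number as a block, which leaves its size as it is.

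ULK1, the kinase that starts autophagosome formation, lost covered length in its window by day 10 in both lines. Its body is chr12:131894622-131923150 on the + strand. In PC3 it had 6.98, 5.11 and 6.74 kb in untreated lists, 5.56, 5.93 and 6.01 kb at day 1 and 4.29, 4.20 and 5.34 kb at day 10. In MDA-MB-231 it had 9.25, 7.54 and 8.94 kb in untreated lists, 7.84, 8.33 and 8.58 kb at day 1 and 5.70, 7.27 and 7.20 kb at day 10. Day 10 lay below every untreated list in MDA-MB-231, and in PC3 1 untreated list lay among the day 10 lists. The changes at day 10 were -0.40 in PC3 (SE 0.119, adjusted p = 0.0115) and -0.33 in MDA-MB-231 (SE 0.119, adjusted p = 0.0461), or -0.25 and -0.23 relative to the median of all genes.

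The ULK1 call in PC3 was lost without untreated replicate 1 (-0.33, adjusted p = 0.0571) or 3 (-0.35, adjusted p = 0.0519). The call in MDA-MB-231 was lost without untreated replicate 1 (-0.28, adjusted p = 0.143) or 3 (-0.30, adjusted p = 0.127), or day 10 replicate 1 (-0.23, adjusted p = 0.201) or 3 (-0.38, adjusted p = 0.0541). In PC3 it also did not pass in the gene body (adjusted p = 0.347), with the 50000 peaks (adjusted p = 0.0681), relative to the genes within 5 Mb (-0.23, adjusted p = 0.112) or with only the groups compared (adjusted p = 0.0767). In MDA-MB-231 it did not pass with any alternative scaling, offset, set of peaks or window (adjusted p from 0.0519 to 0.717). At day 1 neither change passed (-0.09 in PC3 and -0.05 in MDA-MB-231, adjusted p = 0.647 and 0.792). The region chr12:131919065-131920303, near the end of the gene, was in no MDA-MB-231 day 10 list, in all 3 day 1 lists and in all 3 untreated lists. A region in the middle of the gene, chr12:131910337-131913405, was in all 18 lists. It averaged 1989 bp at day 1 and 749 bp in untreated cells in PC3, and 2646 bp at day 1 and 1629 bp in untreated cells in MDA-MB-231. At day 10 that region averaged 1059 bp in PC3 and 1356 bp in MDA-MB-231. The region chr12:131927737-131930772, downstream in the neighbouring gene PUS1, was also in all 18 lists. In PC3 it averaged 1479 bp at day 10 and 2109 bp in untreated cells. In MDA-MB-231 it averaged 2182 bp at day 10 and 2706 bp in untreated cells. Neither region was tested by itself.

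WIPI1, the PI3P-binding protein, was not called over its whole window in survivors of either line. Its body is chr17:68421281-68457496 on the - strand, in a window that ARSG and PRKAR1A overlap, so several of its regions are theirs too. In PC3 it had 6.35, 5.96 and 6.25 kb in untreated lists, 6.35, 6.30 and 5.81 kb at day 1 and 5.54, 5.50 and 5.64 kb at day 10. In MDA-MB-231 it had 6.60, 6.53 and 5.99 kb in untreated lists, 5.14, 6.28 and 5.63 kb at day 1 and 5.65, 6.14 and 5.58 kb at day 10. No change of the window passed, and the 95% intervals in the 4 comparisons with control ran from -0.31 at the lowest to 0.15 at the highest. Within 1 kb of its start WIPI1 was lower in PC3 at day 1 (-0.18, limma adjusted p = 0.0497) and day 10 (-0.20, adjusted p = 0.0184). Of all genes, 37.4% and 72.6% were lower there. By the authors' area score its start peak stood in the top 1.62% of the peaks in each of the 18 lists. The region chr17:68464156-68464511 upstream was in all 3 PC3 day 10 lists and in no other list, and chr17:68438027-68438749 in the body was in all 3 PC3 day 10 lists, all 9 MDA-MB-231 lists and no untreated PC3 list.

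MAP1LC3B, which encodes LC3B, fell in both lines at day 1 and in PC3 at day 10. Its body is chr16:87392336-87404774 on the + strand. In PC3 it had 5.47, 4.74 and 6.01 kb in untreated lists, 4.04, 4.29 and 4.29 kb at day 1 and 4.10, 4.09 and 4.71 kb at day 10. In MDA-MB-231 it had 8.17, 7.23 and 7.13 kb in untreated lists, 6.87, 5.92 and 5.75 kb at day 1 and 6.96, 6.70 and 6.65 kb at day 10. In each line both survivor groups lay below every untreated list. The changes were -0.32 (adjusted p = 0.0276) and -0.30 (adjusted p = 0.0136) in PC3 at day 1 and day 10, and -0.26 (adjusted p = 0.0397) in MDA-MB-231 at day 1, each with an SE of 0.0899. Relative to the median of all genes they were -0.25, -0.14 and -0.18. In MDA-MB-231 at day 10 it was -0.14 (adjusted p = 0.262).

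The PC3 day 1 call of MAP1LC3B was lost without untreated replicate 1 (-0.31, adjusted p = 0.0665) or 3 (-0.25, adjusted p = 0.123), or day 1 replicate 1 (-0.30, adjusted p = 0.092) or 3 (-0.33, adjusted p = 0.0682). The PC3 day 10 call was lost without untreated replicate 3 (-0.22, adjusted p = 0.0775). The MDA-MB-231 day 1 call was lost without each of 5 of the 6 lists, the exception being day 1 replicate 1, with values from -0.30 to -0.20. It was also lost with the 50000 peaks (-0.25, adjusted p = 0.133) and relative to the genes within 5 Mb (-0.20, adjusted p = 0.0757). With only the groups compared, none of the 3 calls passed (adjusted p from 0.0717 to 0.0842), and the PC3 day 1 call did not pass in the gene body (-0.61, adjusted p = 0.0707).

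The MAP1LC3B start lay in chr16:87391302-87393738, a region shared with FBXO31, which also starts there. It was in all 18 lists and was narrower in survivors, at a mean of 1451 bp at day 1 and 1566 bp at day 10 in MDA-MB-231, against 2381 bp in untreated cells. In PC3 it averaged 1919 bp at day 1 and 1478 bp at day 10, against 2250 bp in untreated cells. Within 1 kb of the start all 4 comparisons with control passed: -0.30 (adjusted p = 0.0414) and -0.56 (adjusted p = 0.000685) in PC3 at day 1 and day 10, and -0.58 (adjusted p = 0.0017) and -0.41 (adjusted p = 0.0257) in MDA-MB-231. The medians of all genes at their starts were -0.20 and -0.30 in PC3, and -0.19 and -0.11 in MDA-MB-231. Downstream, chr16:87414288-87414667 in ZCCHC14 was in all 6 MDA-MB-231 survivor lists and no untreated list.

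GABARAPL1, of the same ubiquitin-like family, was not called. Its body is chr12:10212877-10223128 on the + strand. In PC3 it had 2.74, 2.61 and 3.32 kb in untreated lists, 2.14, 2.57 and 2.77 kb at day 1 and 3.21, 2.69 and 2.75 kb at day 10. In MDA-MB-231 it had 3.45, 3.20 and 2.74 kb in untreated lists, 2.41, 3.00 and 2.57 kb at day 1 and 2.37, 2.73 and 2.68 kb at day 10. The intervals of the change were -0.42 to 0.06 and -0.23 to 0.24 in PC3 at day 1 and day 10, and -0.44 to 0.04 and -0.46 to 0.01 in MDA-MB-231. With only the peaks above the median area of each list it was higher in PC3 survivors, by 0.94 at day 1 (adjusted p = 0.0225) and 0.82 at day 10 (adjusted p = 0.0121). The region chr12:10214571-10214836, in the body, was in no MDA-MB-231 day 10 list, in 2 day 1 lists and in all 3 untreated lists.

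**Figure D3:**
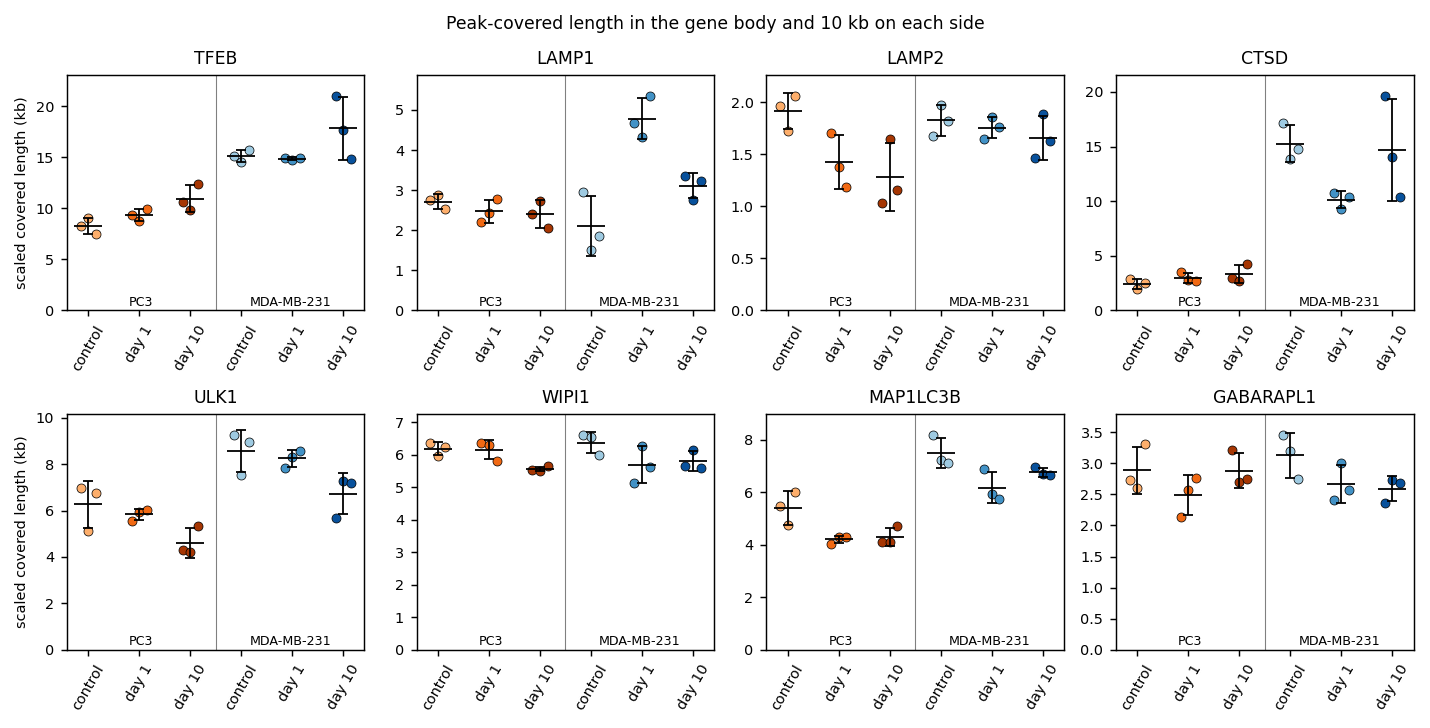
Scaled covered length in kb of the 8 members tested, 1 point per list, by group, with the mean and SD of 3 lists. LAMP1 in MDA-MB-231 is highest at day 1 (4.33 to 5.35 kb), and CTSD lies between 1.99 and 4.23 kb in PC3 and between 9.31 and 19.6 kb in MDA-MB-231.

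Covered length at the starts was fitted separately. Within 1 kb of annotated starts (of either gene end for LAMP2), 4 of 8 members fell in PC3 at day 1 (TFEB, ULK1, MAP1LC3B and WIPI1), against 37.4% of 13195 genes tested. At day 10 in PC3, 7 of 8 fell, all but GABARAPL1, against 72.6% of genes. In MDA-MB-231, MAP1LC3B alone fell at day 1 and at day 10, against 33.7% and 8.12% of genes. No member rose at its start. The members' shares in PC3 are near those of all genes.

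**Figure D4:**
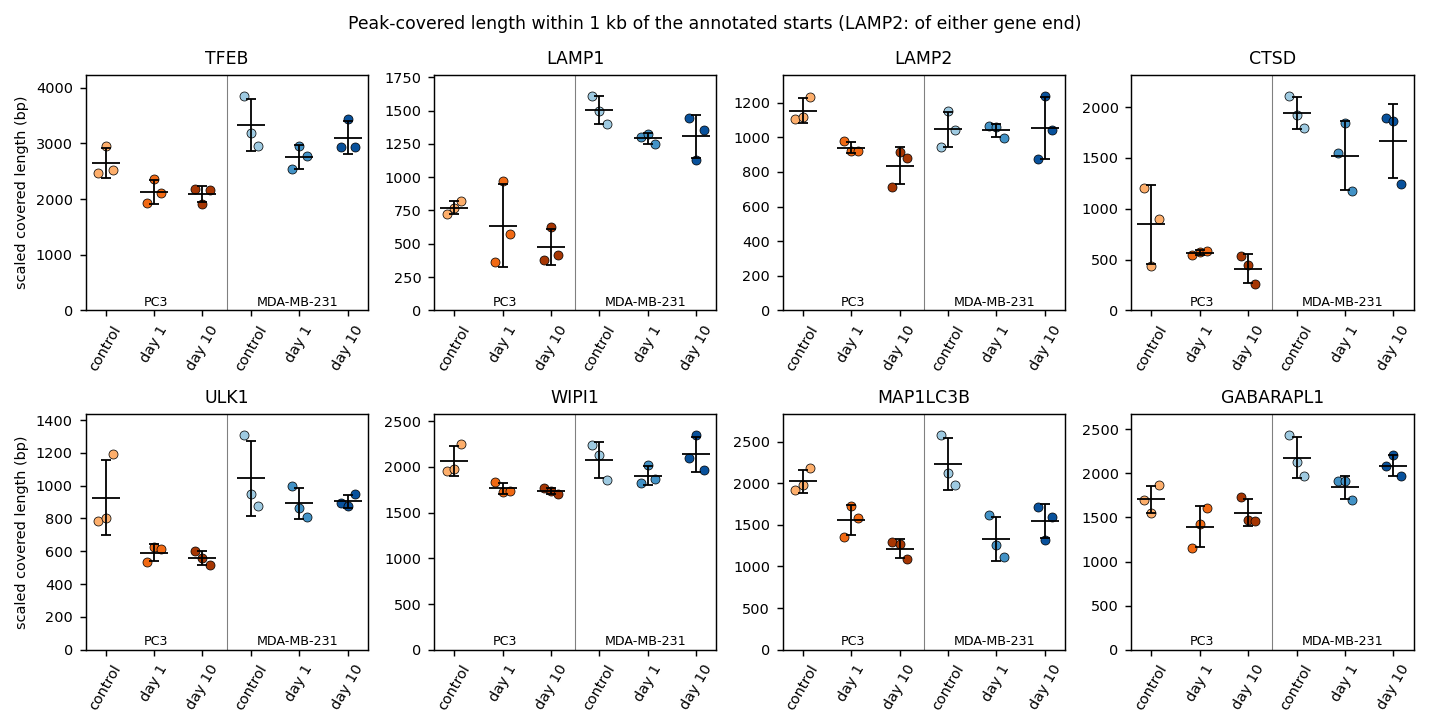
Scaled covered length in bp within 1 kb of the annotated starts, 1 point per list, by group, with the mean and SD of 3 lists. MAP1LC3B is lower in survivors of both lines (1085 to 1294 bp in PC3 at day 10, against 1915 to 2177 bp in untreated PC3).

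The 10 windows held 80 of the 232139 merged regions, and 27 of these (33.8%) had a peak in all 18 lists, against 19.8% of all regions. Regions in all 3 survivor lists and in no control list are called gained, and the opposite lost. At day 1 in PC3, 2 of 47 member regions were gained and none lost, against 4.92% gained and 0.465% lost of all regions with a peak in those groups. At day 10 in PC3, 9 of 56 were gained and 1 lost, against 11.0% and 1.38%. For MDA-MB-231, 6 of 67 were gained and 1 lost at day 1, against 8.77% and 0.755%. At day 10, 4 of 63 were gained and 3 lost in that line, against 11.2% and 1.0%. The shares gained were 4.26% and 16.1% in PC3 at day 1 and day 10, and 8.96% and 6.35% in MDA-MB-231; the largest gap from the background, in PC3 at day 10, was not tested. With the 50000 peaks of largest area in each list, 0 regions were gained in PC3 at either time. The share of all regions gained under that setting is not given, so this count is not read as a result about the members.

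In untreated cells, PC3 was lower than MDA-MB-231 for 4 of 8 members (50.0%) and higher for none, against 44.3% of all genes lower and 21.0% higher. The share lower is near that of all genes. The 4 are CTSD, described above, TFEB (-0.84, SE 0.106, limma adjusted p = 2.41e-06), MAP1LC3B (-0.44, adjusted p = 0.000352) and ULK1 (-0.43, adjusted p = 0.00438). Relative to the median of all genes, -0.20, these were -0.63, -0.24 and -0.23. At day 1 these 4 and LAMP1 (-0.83, adjusted p = 0.000158) were lower in PC3, against 42.5% of genes lower and 20.4% higher. At day 10 the same 4 were lower, against 48.8% and 19.2%. Scaled by the median of ratios, the ULK1 difference in untreated cells was -0.20 (adjusted p = 0.141) and not called, and under that scaling LAMP1 (0.54) and WIPI1 (0.19) were higher in PC3. Relative to the genes within 5 Mb, the LAMP1 difference at day 1 was 0.0206 and not called (adjusted p = 0.918).

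By share of the window under peaks, which allows for length, the order of the members in untreated PC3 was MAP1LC3B (16.7 ± 1.97%), ULK1 (12.9 ± 2.10%), TFEB (11.4 ± 1.08%), WIPI1 (11.0 ± 0.352%), GABARAPL1 (9.54 ± 1.26%), CTSD (7.90 ± 1.48%), LAMP1 (5.85 ± 0.378%) and LAMP2 (3.04 ± 0.271%; SD, n = 3). ULK1 lay within 1 SD of TFEB, and TFEB within 1 SD of WIPI1. In untreated MDA-MB-231, CTSD came first, then MAP1LC3B (23.2 ± 1.77%), TFEB (20.9 ± 0.850%), ULK1 (17.7 ± 1.87%), WIPI1 (11.3 ± 0.594%), GABARAPL1 (10.4 ± 1.19%), LAMP1 (4.52 ± 1.62%) and LAMP2 (2.89 ± 0.236%). WIPI1 and GABARAPL1 did not differ beyond their spread there.

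A wider list of 164 lysosome and autophagy genes in 13 roles gives the setting, with 154 that passed the filter. In PC3 at day 1, 10 rose (6.49%) and 11 fell (7.14%), against 6.02% and 7.24% of all genes. In PC3 at day 10, 15 rose (9.74%) and 61 fell (39.6%), against 11.8% and 33.1%. In MDA-MB-231, 10 rose (6.49%) and 25 fell (16.2%) at day 1, against 10.9% and 15.5%, and 4 rose (2.6%) and 30 fell (19.5%) at day 10, against 11.0% and 16.7%. Apart from fewer rises in MDA-MB-231, these shares are near those of all genes, and no share was tested. Scaled by the median of ratios the counts were 15 and 1, then 28 and 23 in PC3, and 12 and 6, then 8 and 12 in MDA-MB-231. Without scaling, where 153 passed the filter, they were 23 and 0, then 21 and 8 in PC3, and 11 and 1, then 3 and 15 in MDA-MB-231. The counts of all genes under both scalings are given above, and shares were not set beside these counts. The median change of the 154 was -0.22 in PC3 at day 10, against -0.16 for all genes, and in MDA-MB-231 it was -0.12 at day 1 and -0.13 at day 10, against -0.09 and -0.11.

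In PC3 at day 10, where 33.1% of all genes fell, the falls by role were 5 of 8 genes of the TFEB family and its regulators, 8 of 22 of mTORC1 and AMPK at the lysosome, 5 of 16 of the lysosomal membrane, 8 of 16 v-ATPase subunits (the pump that acidifies lysosomes) and 1 of 13 cathepsins and their inhibitors. They were 6 of 22 lysosomal hydrolases and activators, 2 of 4 of the ULK1 complex, 5 of 8 of the class III PI3-kinase complex and 4 of 9 PI3P effectors and ATG9 membrane proteins. Of the LC3 and GABARAP family 1 of 5 fell, of the conjugation enzymes 4 of 10, of the autophagy receptors, which tether cargo to LC3 proteins, 8 of 9, and of the genes for fusion with the lysosome 4 of 12. The highest and the lowest of these shares were those of the receptors and of the cathepsins. No role was tested as a group.

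The receptors had a median change of -0.41 in PC3 at day 10. Their count there was 3 lower and 1 higher when scaled by the median of ratios, and 0 in either direction without scaling. Of the 9, 2 fell in PC3 at day 1. In MDA-MB-231, 1 rose and 1 fell at day 1, and 1 rose and 0 fell at day 10. Of the 13 cathepsins and their inhibitors, 4 rose in PC3 at day 10 (median 0.24), against 11.8% of all genes, and 7 rose and 0 fell under both other scalings. Of 16824 genes tested, 3423 rose and 2516 fell there when scaled by the median of ratios. Without scaling, 2819 rose and 1188 fell of 16817. At day 1 in PC3, 3 rose and 0 fell, and in MDA-MB-231 1 rose at day 1 and none was called at day 10. Of the 16 v-ATPase subunits, 1 rose in PC3 at day 10, and the 8 falls there became 3 when scaled by the median of ratios and 1 without scaling. Otherwise 1 rose and 3 fell in PC3 at day 1, in MDA-MB-231 at day 1, 2 rose and 4 fell, and in MDA-MB-231 at day 10, 1 rose and 4 fell. Of all genes, 6.02% rose and 7.24% fell in PC3 at day 1. In MDA-MB-231 these shares were 10.9% and 15.5% at day 1, and 11.0% and 16.7% at day 10. The receptors and the cathepsins were singled out as the extremes of the roles, so these counts are not read as results about a role.

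Of single genes of the wider list, GALC, a lysosomal galactosylceramidase, had 2.79 ± 0.0495 kb in PC3 at day 10, against 1.09 ± 0.193 kb in untreated PC3 (1.06 log2, adjusted p = 3.83e-06). PPARGC1A, a transcriptional coactivator of mitochondrial genes, had 5.22 ± 0.252 kb at day 10, against 2.64 ± 0.549 kb (0.88, adjusted p = 2.38e-05). ATG4B, the protease that processes LC3 precursors, fell at day 10 to 1.72 ± 0.00763 kb, against 2.78 ± 0.240 kb in untreated cells (-0.56, adjusted p = 5.86e-05), and IDUA, a hydrolase of glycosaminoglycans, to 3.39 ± 0.231 kb, against 4.96 ± 0.244 kb (-0.49, adjusted p = 7.76e-05). At day 1, VPS11, a subunit of the tethering complex for fusion with lysosomes, rose by 1.20 (adjusted p = 0.000519) and BECN1, of the PI3-kinase complex, fell by 0.41 on the log2 scale (adjusted p = 0.014). The BECN1 call was lost without untreated replicate 3 (-0.37, adjusted p = 0.0572) or day 1 replicate 3 (-0.39, adjusted p = 0.0556), and without scaling (-0.18, adjusted p = 0.384).

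In MDA-MB-231, RETREG1, a receptor for autophagy of the endoplasmic reticulum, had 10.3 ± 0.400 kb at day 1 and 12.1 ± 0.166 kb at day 10, against 7.25 ± 0.322 kb in untreated cells (0.48 and 0.71 log2, adjusted p = 0.000309 and 3.33e-06). ATG14, which directs the PI3-kinase complex to autophagosomes, rose by 0.64 at day 1 (adjusted p = 0.000134) and 0.53 at day 10 (adjusted p = 0.000488). ATP6V1E1, a v-ATPase subunit, fell at day 1 to 1.75 ± 0.0902 kb, against 3.19 ± 0.364 kb (-0.71, adjusted p = 0.000352). ATG12, which is conjugated to ATG5, fell at day 1 (-0.50, adjusted p = 0.000725), and did not pass without scaling (-0.38, adjusted p = 0.0669). At day 10 VPS18, of the same tethering complex as VPS11, and ATP6V1H, a v-ATPase subunit, fell (-0.56 and -0.55, adjusted p = 0.000142 and 0.000466). All values are for n = 3 lists per group, and leaving out any 1 list ended none of the calls named for MDA-MB-231 against control.

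Between the survivors the wider list had 5 rises (3.25%) and 7 falls (4.55%) in PC3 at day 10 against day 1, against 2.19% and 5.5% of all genes. These were 9 and 3 when scaled by the median of ratios and 1 and 4 without scaling. Of all genes, 650 rose and 508 fell of 16824 under the first, and 216 and 610 of 16817 under the second. In MDA-MB-231 there were 0 rises and 5 falls (3.25%), against 2.13% and 3.24% of all genes, then 0 and 5, and 0 and 8. Under those 2 scalings, 360 of all genes rose and 500 fell, then 151 and 818. ATG13, a partner of ULK1, was lower at day 10 in PC3, at 1.98 ± 0.309 kb, against 3.02 ± 0.161 kb at day 1 (-0.51, adjusted p = 0.00314). VPS11 was lower at day 10 in MDA-MB-231, at 0.490 ± 0.107 kb, against 1.40 ± 0.226 kb at day 1 (-0.94, adjusted p = 0.00395).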

How the data were processed

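Each list has 10 columns without a header. Column 7 of the deposited lists holds a score, read here as peak area and used to rank the peaks of 1 list among themselves and for nothing else, and column 8 of the deposited lists its -log10 p-value, which entered no result. Genrich 0.6.2, SAMtools 1.6, Bowtie2 2.3.5.1, Picard, R 4.4.1 and FastQC 0.12.1 are named in the submitters' processing notes, with builds GRCh38 and hg38. Per the labels, 3 experimental replicates were made of each biological replicate (54 samples); the sources used here do not say how they were combined into a list. Peaks on chromosomes 1 to 22 and X were used.

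Covered length in each gene body and 10 kb on each side (RefSeq, GRCh38.p14) was scaled to the mean total of the lists. The filter kept genes covered by 500 bp or more in 3 or more lists. Values of log2(length + 500 bp) were fitted with limma 3.58.1 in R 4.3.3, all 6 groups in 1 fit with a variance trend, and p-values adjusted over all genes kept. Folds on this scale understate changes of low values. Regions are peaks of all lists merged, and a list has a region with at least 1 bp of overlap. Where genes overlap, their values rest on the same peaks.

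For same-numbered lists, deviations from the group means were correlated, each time above 0.1, in MDA-MB-231 day 1 with control (0.193 to 0.389), MDA-MB-231 day 10 with day 1 (0.197 to 0.419) and PC3 day 10 with day 1 (0.132 to 0.345). In the other comparisons within a line, not every correlation was above 0.1. The main fit used no pairing in any comparison, so its p-values treat the lists as independent. A block for the replicate number entered only an alternative fit, where it covered the lists of both lines. These correlations come from the data, and the labels do not state a pairing.

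Members, gene lists, tests and alternatives were chosen with earlier results of these data known. Members are described in full; of the wider list, up to 2 higher and 2 lower genes of smallest adjusted p with non-overlapping groups per comparison qualified to be named, and the text gives a selection. Alternatives were other scalings, filters, offsets and windows, lists cut by area, values relative to genes within 5 Mb, a replicate block, only the groups compared, and each list left out.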

Additional observations from a re-analysis of the deposited data

Results flagged for a closer look

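The change of LAMP1 after cisplatin differed between the lines by the interaction term of the limma fit. At day 1, PC3 minus MDA-MB-231 was -1.18 log2 (SE 0.217, adjusted p = 0.00424), from changes of -0.12 in PC3 and 1.06 in MDA-MB-231. All 3 MDA-MB-231 day 1 lists lay above the untreated ones, and the PC3 lists overlapped. The day 1 difference did not pass in the gene body only (-0.50, adjusted p = 0.411), with the peaks above the median area of each list (-0.39, adjusted p = 0.647) or with the 50000 peaks of largest area (-0.45, adjusted p = 0.648). At day 10 the difference was -0.66 (SE 0.217, adjusted p = 0.0463), from -0.15 in PC3 and 0.51 in MDA-MB-231. It passed under neither other scaling, nor in the gene body only, at gene starts or with only the groups compared. For most of the lists, leaving that list out also ended the day 10 call.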

How the results depend on the processing

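The counts of called members were 3 in MDA-MB-231 at day 1, 2 in MDA-MB-231 at day 10, 1 in MDA-MB-231 at day 10 against day 1, 1 in PC3 at day 1, 4 in PC3 at day 10, 0 in PC3 at day 10 against day 1, and 4, 5 and 4 for PC3 against MDA-MB-231 in untreated, day 1 and day 10 cells. The differences between the lines in the day 1 and day 10 changes had 1 each. In MDA-MB-231 at day 1 the count was 1 without scaling, with median-of-ratios scaling, with the 50000 peaks of largest area and in windows of 1 kb around gene starts. At day 10 in that line it was 1 without scaling, with an offset of 100 bp, with the 50000 peaks, with peaks above the median area, at gene starts and relative to the neighbourhood, and 0 with only the groups compared. In the gene body only it was 2, but with 0 higher and 2 lower, which were members other than LAMP1 and ULK1. Of 15016 genes tested there, 1488 were higher and 1959 lower. Between MDA-MB-231 survivors the count was 0 with median-of-ratios scaling, an offset of 100 bp, the 50000 peaks, peaks above the median area, the gene body only and gene starts. Relative to the neighbourhood it was 2, both higher, while the call of the main fit, LAMP1, was lower and did not pass there. In PC3 at day 1 it was 0 with median-of-ratios scaling, the gene body only and only the groups compared. It was 2 with the 50000 peaks and peaks above the median area, and 4 at gene starts, where 37.4% of 13195 genes were lower. At day 10 in PC3 it was 2 with either other scaling, both higher, while the main fit had 1 higher and 3 lower. Relative to the neighbourhood it was 2, with 1 higher and 1 lower, and with only the groups compared it was 1. It was 7 at gene starts, where 72.6% of genes were lower. Between PC3 survivors it was 1 with peaks above the median area and relative to the neighbourhood. Between the lines it was 2 in untreated and 3 in day 1 cells with the 50000 peaks. In day 10 cells it was 8 at gene starts, where 74.0% of genes were lower in PC3. The day 1 difference between the lines had 0 calls with the 50000 peaks, the gene body only and gene starts, and 2 with only the groups compared. The day 10 difference had 0 without scaling, with median-of-ratios scaling, the gene body only, gene starts and only the groups compared, and 2 with the 50000 peaks. Most of these counts stand without the share of all genes under the same setting and are not read as results about the members. The cause of these changes was not tested.

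With the replicate number as a block the day 1 difference between the lines had 2 calls, LAMP1 and CTSD, and no other count of called members moved by over 1.5 times. No paired fit was possible for PC3 against MDA-MB-231 because the numbers are nested in the lines. With 1 list left out, the counts ran from 1 to 2 in MDA-MB-231 at day 1, from 0 to 2 at day 10 and from 0 to 1 at day 10 against day 1, from 0 to 1 in PC3 at day 1, from 2 to 4 in PC3 at day 10 and from 0 to 1 for the day 10 difference between the lines, where 9 of the 12 lists each ended the LAMP1 call (adjusted p from 0.057 to 0.116). Regions gained or lost ran from 7 to 13 in MDA-MB-231 at day 1, the highest without day 1 replicate 2, and from 2 to 6 in PC3 at day 1, the highest without day 1 replicate 2. With the 50000 peaks of largest area they were 1 in PC3 at day 1 and 2 in PC3 at day 10. The shares over all regions under these settings are not given, so these counts are not read as results about the members.

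Of single values, 23 for members and 9 for other pathway genes changed sign. At gene starts, TFEB was -0.26 and -0.28 in PC3 at day 1 and day 10, LAMP1 in MDA-MB-231 was -0.16 at day 1, -0.15 at day 10 and 0.0095 between the survivors, and -0.65 in untreated PC3 against MDA-MB-231, CTSD was -0.53 in PC3 at day 10, MAP1LC3B was 0.17 and GABARAPL1 -0.33 between the lines at day 1 and day 10. There, in MDA-MB-231, ATG14 was -0.16 at day 1 and -0.24 at day 10 and ATP6V1F 0.12 at day 10 against day 1, GALC 0.0 in PC3 at day 1 and DDIT4 -0.0872 in PC3 at day 10 against day 1. With the 50000 peaks and with peaks above the median area, TFEB was 0.49 and 0.43 in MDA-MB-231 at day 1 and GABARAPL1 1.07 and 0.94 in PC3 at day 1. With peaks above the median area, MAP1LC3B was -0.38, ATG4B 0.000761 and ATG13 0.0605 in PC3 at day 10 against day 1. In the gene body only, MAP1LC3B was 0.44 between the lines at day 1, ATP6V1F 0.17 and DDIT4 -0.21. Relative to the neighbourhood, LAMP1 was 0.0206 and 0.47 between the lines at day 1 and day 10, ULK1 0.0749 and WIPI1 -0.28 at day 1, and GABARAPL1 0.47 and 0.46 in untreated and day 1 cells. With median-of-ratios scaling WIPI1 was 0.19 and 0.24 between the lines in untreated and day 10 cells. The lists give no depth, so the smallest change they could show is unknown, and a gene without a call is not shown to be alike between groups.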
